A study of Mus musculus with 8 samples.

Results

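The genes described here are 10 genes for Cdc42, Rac and related GTPases and their direct regulators, measured in mouse hematopoietic stem cells: the GTPases Cdc42, Rac1, Rac2, Rhoa and Rhoh, the dissociation inhibitors Arhgdia and Arhgdib, the exchange factor Dock11, the kinase Pak2 and the scaffold Iqgap1. They were chosen by symbol, and all 10 were found among the 33641 gene symbols of the files. RNA-seq was done on stem cells sorted from the bone marrow of C57BL/6 mice of 4 genotypes, with 2 libraries each: the triple null (Scribble-/-;Taz-/-;Yap1-/-), the Scribble null (Scribble-/-), the Yap1 Taz null (Taz-/-;Yap1-/-) and wild type. All groups carried the Mx1-Cre transgene, wild type included. PolyI:C was injected 6 times in all groups, at 10 mg/kg on alternate days, and cells were taken 1 week after induction. Mx1-Cre is driven by an interferon-responsive promoter, so deletion is not limited to stem cells and polyI:C itself raises interferon signalling. The labels give no age or sex, and whether a genotype's 2 libraries stem from separate mice or from pools is not stated. P-values therefore measure the spread between libraries, which may be technical.

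These GTPases are switches that are active when bound to GTP and inactive when bound to GDP. Exchange factors load GTP, GTPase-activating proteins speed its hydrolysis, and dissociation inhibitors (GDIs) hold the GTPase in the cytosol. In hematopoietic stem cells CDC42 is known for its part in cell polarity and aging, RAC1 and RAC2 for homing and retention in the marrow, and RHOA for actomyosin contraction and survival of progenitors. Scribble is a polarity scaffold, and YAP1 and TAZ (the product of Wwtr1) are transcriptional co-activators that work through TEAD factors.

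The short sequences that set RHOH apart from the other GTPases are shown first, because its level is read differently from theirs: RHOH is known to lack the residues used to hydrolyse GTP, so its activity is thought to follow its abundance. The coding sequences come from the GENCODE M21 transcripts (GRCm38), in the sense of the transcript. The capitals mark the codon that aligns with codon 12 of Cdc42, in the phosphate-binding loop.
Cdc42: gttggtgatGGTgctgttggtaaaaca
Rac1: gtgggagacGGAgctgttggtaaaacc
Rac2: gtgggtgatGGAgccgtgggcaagacg
Rhoa: gttggtgatGGAgcttgtggtaagaca
Rhoh: gtaggggacAGTgctgtggggaaaacc

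In the next set the capitals mark the codon that aligns with codon 61 of Cdc42, in the switch II region, which takes part in hydrolysis.
Cdc42: tttgatactgcagggCAAgaggattat
Rac1: tgggacacagctggaCAAgaagattat
Rac2: tgggataccgcaggtCAGgaggactat
Rhoa: tgggacacagctggaCAGgaagattat
Rhoh: tgggacactgccggcAACgacgccttc

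Rhoh carried AGT at the first of these codons and AAC at the second, while the other 4 genes carried GGT or GGA at the first and CAA or CAG at the second. Over aligned codons the coding bases of Rac1 and Rac2 were 77.1% identical, those of Cdc42 and Rac1 65.4%, those of Cdc42 and Rhoh 53.3%, and those of Arhgdia and Arhgdib 67.2%. A near-identical copy elsewhere in the transcriptome (at least 95% identity over at least 80% of the coding sequence) was found for Rhoa alone, in the processed pseudogenes Gm12844 and Gm13578. Each of these stayed below 1 TPM (transcript abundance per length, scaled to a fixed total) in all 8 libraries, against at least 213.9 TPM for Rhoa.

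All 10 genes passed the filter of at least 1 TPM in at least 2 libraries, which kept 16064 genes. Differences are given on the log2(TPM + 1) scale with their standard error (SE), and a gene is called where the adjusted p (limma, Benjamini-Hochberg over all 16064 genes) is under 0.05. The depth behind TPM is unknown. Between 14024 and 14970 symbols reached 1 TPM per library. The median gene stood 0.12 to 0.14 above wild type in the 3 null genotypes, so small positive differences lie near the middle of all genes. All 13 stem cell markers were measured. Their sum was 2626 to 2698 TPM in wild type and higher in every null library. It was 3167 to 3269 TPM in the triple null. The Scribble null had 2886 to 3099 TPM and the Yap1 Taz null 2837 to 3143 TPM. Among the 13 markers Procr alone was called, as higher in the triple null than in the Yap1 Taz null. The targeted genes gave no check of the labels. Scrib had 14.49 and 7.535 TPM in the triple null, 6.255 and 7.627 TPM in the Scribble null, 7.978 and 7.324 TPM in the Yap1 Taz null and 8.189 and 9.285 TPM in wild type. Yap1 had 2.251 and 2.374 TPM in the triple null, 5.831 and 2.449 TPM in the Scribble null, 2.127 and 6.634 TPM in the Yap1 Taz null and 2.003 and 2.151 TPM in wild type. Wwtr1 had 1.922 and 0.7749 TPM in the triple null, 5.323 and 3.909 TPM in the Scribble null, 1.095 and 1.149 TPM in the Yap1 Taz null and 0.7299 and 1.187 TPM in wild type. The mean of Scrib was 6.941 TPM in the Scribble null and 11.01 TPM in the triple null, against 8.737 TPM in wild type. The mean of neither Yap1 nor Wwtr1 was lower in the genotypes labelled null for it than in wild type. Both lay lower in the triple null than in the Scribble null, without overlap. None of the 3 genes was called in any comparison. Which exons are deleted is not given in the sources used here, and a value for the whole gene checks nothing where other exons are still transcribed. The labels are used as given, so each genotype named below means the libraries labelled with it.

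Of the 10 genes, Dock11 fell and Arhgdib rose, and the other 8 were called in none of the comparisons. Dock11 was called lower in the Yap1 Taz null and in the triple null. Arhgdib was called higher in the triple null. In the triple null against wild type, 1 of 10 genes was called higher and 1 lower, where 0.579% of all tested genes were called. In the Yap1 Taz null against wild type, 1 of 10 was called, against 0.990% of all genes. In the Scribble null against wild type, 0 of 10 were called, against 1.30% of all genes; at an unadjusted p under 0.05 (limma) there were 0 of 10, against 18.2% of all genes. An F test over the 4 genotypes called 1 gene, Dock11, against 1.00% of all genes. The genes were chosen with earlier results of these data known, so these counts describe the set and test nothing about it. The median difference of the 10 genes from wild type was 0.16 in the triple null, -0.04 in the Scribble null and 0.04 in the Yap1 Taz null, beside 0.12, 0.14 and 0.14 over all genes.

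**Figure D1:**
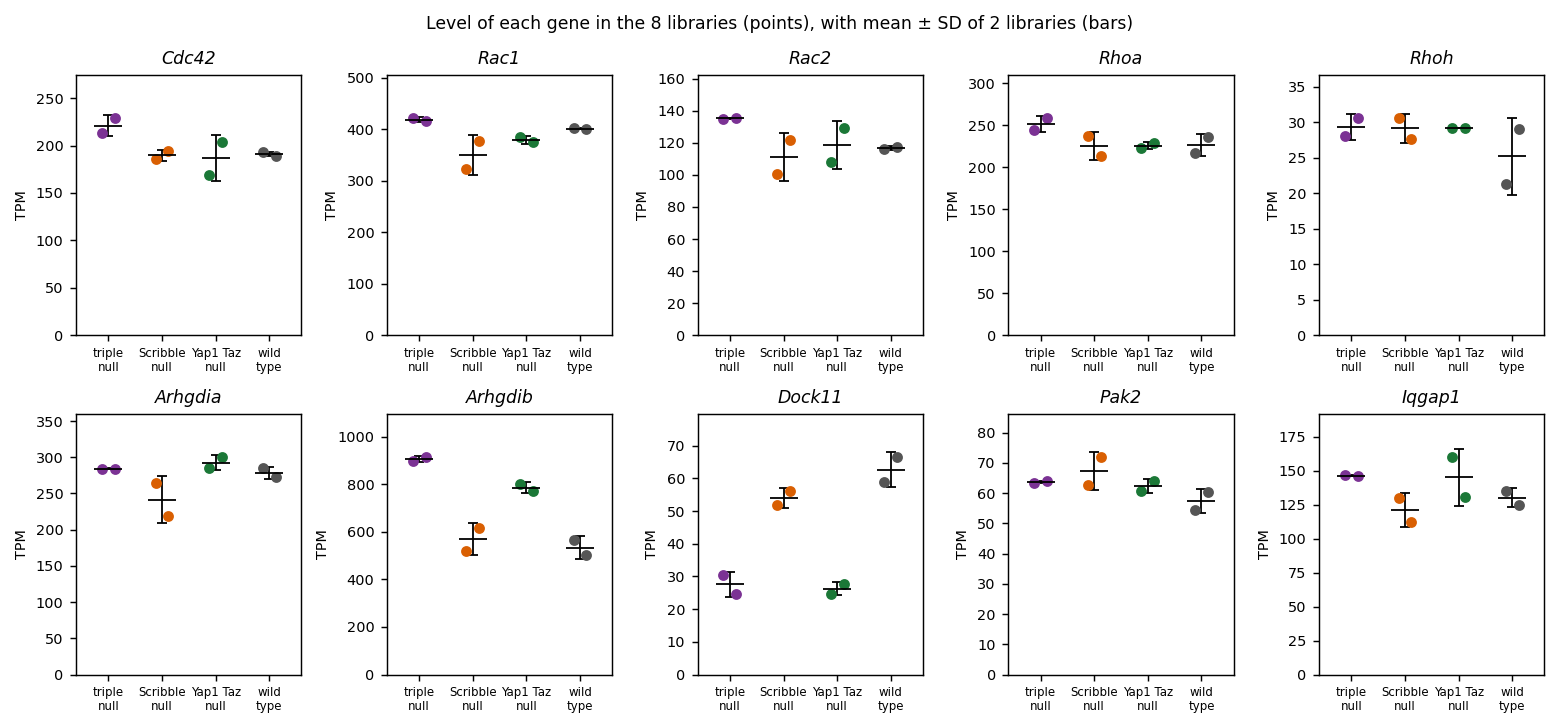
Level of each of the 10 genes in TPM (y axis, from 0) in the 8 libraries (points), by genotype (x axis), with the mean ± SD of the 2 libraries of a genotype. Dock11 lies between 24.74 and 30.34 TPM in the 4 libraries labelled null for Yap1 and Taz, below the other 4 at 51.78 to 66.44 TPM, and Arhgdib is arranged the other way round.

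Cdc42 (chromosome 4), the polarity GTPase that DOCK11 loads with GTP, had 213.0 and 229.1 TPM in the triple null, 185.6 and 193.9 TPM in the Scribble null, 169.4 and 204.3 TPM in the Yap1 Taz null and 192.8 and 189.4 TPM in wild type. Both triple null libraries were the highest of the 8, and the other 3 genotypes overlapped. The share of all genes ranked this way was not counted, so the ranking does not set Cdc42 or the other GTPases apart. The triple null differed from wild type by 0.21 (SE 0.13, 95% interval -0.09 to 0.51, adjusted p = 0.597 by limma), which is not called. The interval allows a difference of up to 0.51 upward and 0.09 downward on the log2 scale, so a moderate change in Cdc42 transcript cannot be told from none with 2 libraries a genotype.

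Rac1 (chromosome 5), the ubiquitous Rac, had 422.0 and 415.3 TPM in the triple null, 323.3 and 376.9 TPM in the Scribble null, 384.8 and 374.4 TPM in the Yap1 Taz null and 401.7 and 400.6 TPM in wild type. It was the most abundant of the 5 GTPases in every library. Both Scribble null and both Yap1 Taz null libraries lay below wild type, and both triple null libraries lay above it. None of these differences was called. They were 0.06 for the triple null (adjusted p = 0.881), -0.20 for the Scribble null (adjusted p = 0.385) and -0.08 for the Yap1 Taz null (adjusted p = 0.779), all by limma.

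Rac2 (chromosome 15), the Rac of blood cells, had 134.9 and 135.5 TPM in the triple null, 100.5 and 122.0 TPM in the Scribble null, 108.1 and 129.4 TPM in the Yap1 Taz null and 115.9 and 117.6 TPM in wild type. The triple null libraries were the highest, a ranking whose share over all genes was not counted, and the other 2 null genotypes spanned the wild type values. The difference of the triple null from wild type was 0.21 (SE 0.15, adjusted p = 0.644 by limma). Rac1 was 3.13 and 3.06 times as abundant as Rac2 in the triple null, 3.22 and 3.09 times in the Scribble null, 3.56 and 2.89 times in the Yap1 Taz null and 3.47 and 3.41 times in wild type, on the TPM scale. The values of the Yap1 Taz null spanned those of every other genotype.

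Rhoa (chromosome 9), the contractility GTPase, had 244.4 and 258.6 TPM in the triple null, 237.6 and 213.9 TPM in the Scribble null, 222.7 and 228.8 TPM in the Yap1 Taz null and 216.7 and 235.5 TPM in wild type. Its highest library stood 1.21 times above its lowest, the narrowest range of the 10 genes. Against wild type it differed by 0.15 in the triple null (95% interval -0.11 to 0.42), by -0.0029 in the Scribble null (95% interval -0.27 to 0.26) and by -0.00091 in the Yap1 Taz null (95% interval -0.27 to 0.27). Rhoh (chromosome 5), the GTPase of blood cells whose codons are shown above, had 27.98 and 30.58 TPM in the triple null, 30.58 and 27.68 TPM in the Scribble null, 29.16 and 29.22 TPM in the Yap1 Taz null and 21.35 and 29.01 TPM in wild type. A single wild type library lay low and the other 7 lay between 27.68 and 30.58 TPM. Its differences from wild type were 0.22 in each null genotype, with adjusted p of 0.717 in the triple null, 0.604 in the Scribble null and 0.648 in the Yap1 Taz null (limma).

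Summed over the 5 GTPases, the level was 1042 and 1069 TPM in the triple null, 877.6 and 934.4 TPM in the Scribble null, 914.2 and 966.1 TPM in the Yap1 Taz null and 948.5 and 972.2 TPM in wild type. The triple null libraries had the highest sums, and the Yap1 Taz null overlapped both the Scribble null and wild type. Whether sums over other genes rank the same way was not counted. By mean TPM over the 8 libraries, the order among all 10 genes was Arhgdib (698.1), Rac1 (387.4), Arhgdia (274.3), Rhoa (232.3), Cdc42 (197.2), Iqgap1 (135.8), Rac2 (120.5), Pak2 (62.69), Dock11 (42.60) and Rhoh (28.19). The ranges of Arhgdia, Rhoa and Cdc42 overlapped as neighbours, as did those of Iqgap1 and Rac2, of Pak2 and Dock11, and of Dock11 and Rhoh. The authors' table of the whole series gives other levels for Rhoh and Iqgap1, with TPM 3.10 and 2.46 times as high as its values, against 0.94 to 1.37 times for the other 8 genes. In that table Rhoh is again the lowest, and Iqgap1 falls below Rac2 and Pak2.

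Arhgdia (chromosome 11), the widely expressed GDI, had 283.9 and 284.4 TPM in the triple null, 265.1 and 218.3 TPM in the Scribble null, 284.9 and 300.0 TPM in the Yap1 Taz null and 284.8 and 273.0 TPM in wild type. The 2 lowest values were those of the Scribble null, whose difference from wild type was -0.21 (SE 0.13, adjusted p = 0.409 by limma) and is not called. Arhgdib (chromosome 6), the GDI of blood cells, was the most abundant of the 10 genes. It had 896.5 and 912.9 TPM in the triple null, 520.9 and 617.2 TPM in the Scribble null, 801.2 and 769.3 TPM in the Yap1 Taz null and 566.5 and 500.5 TPM in wild type. The order of the genotypes was triple null, Yap1 Taz null, Scribble null and wild type. Each of the first 2 lay above all libraries of the genotypes after it, while the Scribble null and wild type overlapped.

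Arhgdib rose in the triple null by 0.76 over wild type (1.70-fold, SE 0.12, 95% interval 0.49 to 1.04, adjusted p = 0.0428 by limma), or 0.65 beyond the median of all genes. In the Yap1 Taz null the difference was 0.56 (SE 0.12, 95% interval 0.28 to 0.84, adjusted p = 0.101 by limma), with both libraries above wild type, and it is not called. In the Scribble null it was 0.09 (95% interval -0.19 to 0.37). The triple null differed from the Scribble null by 0.67 (adjusted p = 0.114 by limma), with no overlap, in a comparison where 0 of the 10 genes and 0.212% of all genes were called; at an unadjusted p under 0.05 these were 3 of 10 and 9.15% (limma). The triple null call is a narrow one. Among the settings counted next, the sum with near-identical copies alters Rhoa alone, so it repeats the main result and counts as kept. It was past the threshold in 7 of 19 alternative settings, with adjusted p of 0.0262 to 0.287. Leaving out either triple null library or either wild type library ended it (adjusted p = 0.287 without triple null replicate 2, 0.283 without triple null replicate 1, 0.196 without wild type replicate 2 and 0.167 without wild type replicate 1, by limma), and so did leaving out Yap1 Taz null replicate 1 or 2 (adjusted p = 0.0969 and 0.0966, by limma).

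Together the 2 GDIs summed to 1180 and 1197 TPM in the triple null, 785.9 and 835.5 TPM in the Scribble null, 1086 and 1069 TPM in the Yap1 Taz null and 851.3 and 773.4 TPM in wild type. Arhgdib was 3.16 and 3.21 times as abundant as Arhgdia in the triple null, 1.97 and 2.83 times in the Scribble null, 2.81 and 2.56 times in the Yap1 Taz null and 1.99 and 1.83 times in wild type. Per unit of the 5 GTPases, the Arhgdib level was 0.860 and 0.854 in the triple null, 0.594 and 0.661 in the Scribble null, 0.876 and 0.796 in the Yap1 Taz null and 0.597 and 0.515 in wild type. These ratios compare transcripts and say nothing of the proteins.

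Dock11 lies on chromosome X (GRCm38 chrX:35888832-36076562, plus strand) and encodes an exchange factor for CDC42 of the DOCK family, also known as zizimin 2, found mainly in blood cells. It had 30.34 and 24.74 TPM in the triple null, 51.78 and 56.22 TPM in the Scribble null, 24.76 and 27.59 TPM in the Yap1 Taz null and 58.95 and 66.44 TPM in wild type. The 4 libraries labelled null for Yap1 and Taz lay at 24.74 to 30.34 TPM and the other 4 at 51.78 to 66.44 TPM. Within the first 4, the triple null and the Yap1 Taz null overlapped. Within the other 4, both Scribble null libraries lay below both wild type libraries.

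Dock11 fell in the Yap1 Taz null by 1.23 against wild type on the log2 scale (0.43-fold, SE 0.18, 95% interval -1.64 to -0.82, adjusted p = 0.0203 by limma). It fell in the triple null by 1.16 (0.45-fold, SE 0.18, 95% interval -1.57 to -0.76, adjusted p = 0.0355 by limma). The difference of the Scribble null from wild type was -0.21 (95% interval -0.62 to 0.20, adjusted p = 0.565 by limma). The triple null differed from the Scribble null by -0.95 (95% interval -1.36 to -0.55, adjusted p = 0.128 by limma), with no overlap but no call. Between the triple null and the Yap1 Taz null the difference was 0.07 (95% interval -0.34 to 0.47), in a comparison where limma called 0 of the 10 genes and 0.181% of all genes; at an unadjusted p under 0.05 these were 0 of 10 and 8.41%. The call in the Yap1 Taz null was kept in 12 of 19 alternative settings and that in the triple null in 6 of 19. The direction was the same in all, but many settings leave the difference itself at -1.23 or -1.16 and could not turn it. The setting that sums near-identical copies alters Rhoa alone, so it repeats the main result and is counted as kept. Leaving out either Yap1 Taz null or either wild type library ended the first call (adjusted p of 0.103 to 0.130 by limma), and leaving out any single library ended the second (adjusted p of 0.0616 to 0.260 by limma).

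**Figure D2:**
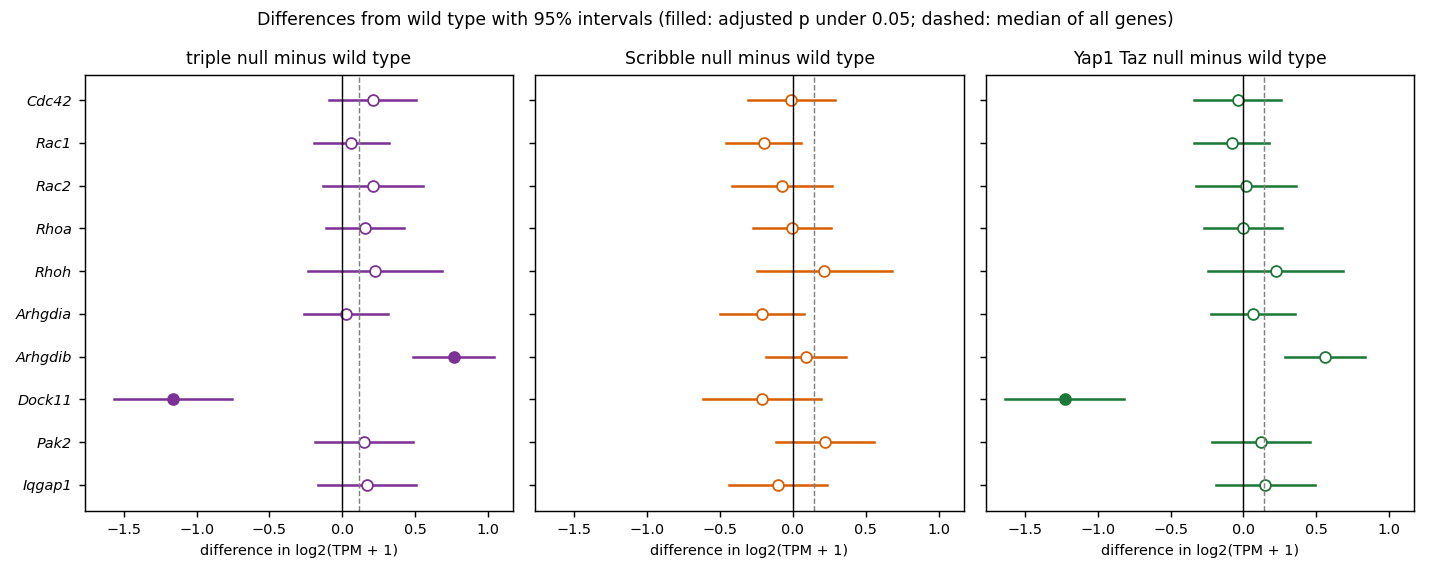
Difference in log2(TPM + 1) of each gene (x axis) in the triple null, the Scribble null and the Yap1 Taz null from wild type, with 95% intervals from limma; filled points are called and the dashed line is the median of all 16064 genes. Dock11 lies at -1.16 and -1.23 in the 2 genotypes labelled null for Yap1 and Taz and at -0.21 in the Scribble null, and Arhgdib lies at 0.76, 0.56 and 0.09.

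Because Dock11 and Arhgdib separated the libraries by their Yap1 and Taz label, the loss of Yap1 and Taz was also averaged over both Scribble states. How many of all genes separate the libraries this way was not counted. The averaged comparison was added after the values were seen, so its p-values for these genes restate the split and do not test it. In the averaged comparison, Dock11 was lower by a log2 difference of -1.09 (SE 0.12, 95% interval -1.38 to -0.80, adjusted p = 0.0105 by limma) and Arhgdib higher by 0.62 (SE 0.08, 95% interval 0.42 to 0.81, adjusted p = 0.0259 by limma). The other 8 genes lay between 0.02 and 0.21, and 0.454% of all genes were called. Averaged over both Yap1 and Taz states, Scribble loss called 0 of the 10 genes, where 0.566% of all genes were called; at an unadjusted p under 0.05 (limma) there were 0 of 10, against 12.5% of all genes. The test of additivity, which sets the triple null against the Scribble null effect added to the Yap1 Taz null effect, called 0 of 10, against 0.635% of all genes, and 0 of 10 at an unadjusted p under 0.05 (limma), against 14.5% of all genes. That departure was 0.28 for Dock11 (95% interval -0.30 to 0.85) and 0.11 for Arhgdib (95% interval -0.28 to 0.51).

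Other measures differed between the genotypes beside Dock11 and Arhgdib. The Y-linked Eif2s3y had 62.13 and 61 TPM in the triple null, 56.52 and 64.07 TPM in the Scribble null, 4.156 and 4.628 TPM in the Yap1 Taz null and 45.83 and 56.06 TPM in wild type, and the Y-linked Kdm5d and Ddx3y were low in the Yap1 Taz null alone as well. The labels give no sex, Dock11 is X-linked, and the part of this difference in the Dock11 values was not tested. Of the 10 monocyte, macrophage or dendritic markers 5 reached a mean of 1 TPM in some genotype, and their sum was 1022 to 1062 TPM in the triple null, 541.0 to 591.0 TPM in the Scribble null, 708.4 to 781.5 TPM in the Yap1 Taz null and 2876 to 3247 TPM in wild type. H2-Aa, H2-Ab1 and Cd74 carried most of that sum and were called lower than wild type in each null genotype. Csf1r stayed below 1 TPM in every library. The 6 megakaryocyte markers summed to 469.6 to 505.3 TPM in the triple null, 420.3 to 429.1 TPM in the Scribble null, 610.2 to 612.8 TPM in the Yap1 Taz null and 1156 to 1294 TPM in wild type, and the gap is that of Pf4, with 135.0 and 222.1 TPM in the triple null, 94.92 and 98.87 TPM in the Scribble null, 222.3 and 210.9 TPM in the Yap1 Taz null and 815.8 and 957.6 TPM in wild type; the list's median log2 difference from wild type was -0.14 in the triple null, -0.29 in the Scribble null and 0.11 in the Yap1 Taz null. Pf4 was called lower than wild type in each null genotype. The 6 NK cell markers summed to 101.2 to 110.2 TPM in the triple null, 97.07 to 113.5 TPM in the Scribble null, 58.63 to 73.83 TPM in the Yap1 Taz null and 141.1 to 153.2 TPM in wild type. Most of this was Nkg7 in every library, with Klrb1c at 30.88 and 14.95 TPM in the Scribble null and at most 5.353 TPM elsewhere, and Ncr1, Gzma and Klrd1 were listed at 0 in all libraries. Nkg7 was called lower than wild type in the Yap1 Taz null. The 10 granulocyte markers summed to 302.6 to 312.0 TPM in the triple null, 383.5 to 545.8 TPM in the Scribble null, 242.7 to 258.6 TPM in the Yap1 Taz null and 171.5 to 199.4 TPM in wild type, carried by Prtn3 and Csf3r, both of which were called higher in the Scribble null (adjusted p = 0.0324 and 0.0371 by limma), with Mpo at 2.557 TPM or less and S100a8 listed at 0. Against wild type, the first 3 sums were lower and the granulocyte sum was higher in every null genotype. The T cell marker sum was higher too, at 28.84 to 37.06 TPM in the null libraries against 21.05 to 21.79 TPM in wild type. The stem cell marker sum was also higher, as given above. The B cell, erythroid, endothelial and stromal sums did not separate from wild type in every null genotype. The part of these markers in the called genes was not tested. In bulk RNA, fewer cells of a type and less RNA per cell cannot be told apart.

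Promoter sequence was available for 7 of the 10 genes, as the 250 bases before each RefSeq start (GRCm38.p6). Each was searched on both strands for GGAATG, the core that TEAD factors bind, which is in 12.64% of 32851 promoters of that length, and for the AP-1 motif TGANTCA, which is in 6.75%. GGAATG was found before the inner 2 of the 3 starts of Arhgdib, not before its outermost start, and before the start of Rhoh. The matches in both genes lie within the annotated gene. None was found in the window of Dock11, and no AP-1 motif in any of the 7 genes. The 30-base stretches around the matches are given on the gene's strand, with the motif in capitals.
Arhgdib, chr6:136941638-136941667, minus strand, 152 bases before the start: cgactggagcctGGAATGtaagttgaatgc
Arhgdib, chr6:136939540-136939569, minus strand, 30 bases before another start: aagagcgcgcttGGAATGcataggcaggaa
Rhoh, chr5:65863373-65863402, plus strand, 199 bases before the start: cctcaacaggagGGAATGgagagagagaaa

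These matches describe the letters of the windows. Whether they bear on the level of any of the genes was not tested.

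Pak2 (chromosome 16), a kinase that active CDC42 and RAC switch on, had 63.42 and 63.89 TPM in the triple null, 62.75 and 71.81 TPM in the Scribble null, 60.78 and 64.07 TPM in the Yap1 Taz null and 54.55 and 60.29 TPM in wild type. All 6 null libraries lay above both wild type libraries. The differences from wild type were 0.15 in the triple null, 0.22 in the Scribble null and 0.12 in the Yap1 Taz null, beside median genes at 0.12, 0.14 and 0.14, and none was called. Iqgap1 (chromosome 7), a scaffold that binds active CDC42 and RAC1 and links them to actin, had 146.6 and 146.1 TPM in the triple null, 130.1 and 112.5 TPM in the Scribble null, 160.0 and 130.5 TPM in the Yap1 Taz null and 135.1 and 125.2 TPM in wild type. The triple null lay above wild type, and the other 2 null genotypes overlapped it. The triple null differed from wild type by 0.17 (95% interval -0.17 to 0.51, adjusted p = 0.705 by limma).

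The rest of the pathway was read from 10 lists of 194 genes (GTPases, exchange factors, GTPase-activating proteins, the third GDI, effectors, WAVE and Arp2/3, actomyosin and the phagocyte oxidase that RAC2 switches on). Of these, 177 were tested and 1 was called in any comparison. Akap13, an anchoring protein and exchange factor for RHOA, had 382.3 and 378.5 TPM in the triple null, 493.7 and 432.9 TPM in the Scribble null, 337.6 and 377.9 TPM in the Yap1 Taz null and 246.6 and 269.3 TPM in wild type. All 6 null libraries lay above wild type. It rose in the Scribble null by 0.84 (SE 0.12, 95% interval 0.56 to 1.12, adjusted p = 0.0212 by limma), and its differences of 0.56 in the triple null and 0.47 in the Yap1 Taz null were not called (adjusted p = 0.128 and 0.152 by limma). The Akap13 call was kept in 11 of 19 alternative settings, and leaving out either wild type library, Scribble null replicate 1 or either triple null library ended it (adjusted p of 0.0637 to 0.195 by limma). The setting that sums near-identical copies alters Rhoa alone, so it repeats the main result for Akap13 and is counted as kept. The Akap13 call is 0.565% of the 177 genes in the Scribble null, against 1.30% of all genes. The other 5 comparisons called 0 of the 177 (limma). At an unadjusted p under 0.05 there were 22 of the 177 in the triple null (12.4%, against 10.9% of all genes), 42 in the Scribble null (23.7%, against 18.2%) and 28 in the Yap1 Taz null (15.8%, against 14.3%), each against wild type. There were 13 between the triple null and the Scribble null (7.34%, against 9.15%), 10 between the triple null and the Yap1 Taz null (5.65%, against 8.41%) and 28 in the test of additivity (15.8%, against 14.5%). Over the 177 the median difference from wild type was 0.17 in the triple null, 0.23 in the Scribble null and 0.12 in the Yap1 Taz null, beside 0.12, 0.14 and 0.14 over all genes.

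Among the other DOCK exchange factors and their ELMO partners, 12 of 13 were tested and 0 were called in any comparison. Of all genes, 0.181% to 1.3% were called, depending on the comparison. At such shares, 0 calls among 12 genes say little of the family. The median difference of the 12 from wild type was 0.24 in the triple null, 0.32 in the Scribble null and 0.39 in the Yap1 Taz null. Dock2, the Rac exchange factor of leukocytes, had 90.02 and 85.29 TPM in the triple null, 84.60 and 87.83 TPM in the Scribble null, 85.63 and 83.98 TPM in the Yap1 Taz null and 85.00 and 80.22 TPM in wild type, a span under that of any of the 10 genes. The closest relatives of Dock11 in the CDC42-directed branch, Dock9 and Dock10, lay above wild type in every null library, as did Pak2, Akap13 and Iqgap2. The share of all genes with this order was not counted, and the median gene stood 0.12 to 0.14 above wild type in the null genotypes. Dock9 had 14.38 and 16.15 TPM in the triple null, 19.84 and 22.58 TPM in the Scribble null, 13.48 and 22.95 TPM in the Yap1 Taz null and 11.02 and 9.722 TPM in wild type. Dock10 had 36.56 and 43.38 TPM in the triple null, 62.39 and 52.35 TPM in the Scribble null, 48.99 and 55.03 TPM in the Yap1 Taz null and 36.15 and 29.22 TPM in wild type. Against the Scribble null, the triple null was lower in both libraries for both genes, as for Dock11. Neither was called against wild type (adjusted p for Dock9 0.543, 0.135 and 0.302, for Dock10 0.618, 0.0949 and 0.186, in the triple null, the Scribble null and the Yap1 Taz null by limma) or between the triple null and the Scribble null (adjusted p = 0.688 for Dock9 and 0.449 for Dock10 by limma), and their differences from Dock11 were not tested.

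Of the 44 GTPase-activating proteins, the 27 Dbl family exchange factors for Rac or Cdc42, the 24 further Rac or Cdc42 effectors, the 18 WAVE and Arp2/3 genes and the 23 RhoA effector and actomyosin genes that were tested, 0 were called in any comparison. The share of all genes called was 0.181% to 1.3%, depending on the comparison. Among the relatives of Pak2 and Iqgap1, Pak1 lay between 91.69 and 159.8 TPM and Iqgap2 between 91.38 and 137.9 TPM. Iqgap2 had 117.0 and 137.9 TPM in the triple null, 128.6 and 112.6 TPM in the Scribble null, 123.1 and 125.3 TPM in the Yap1 Taz null and 91.38 and 94.31 TPM in wild type. All 6 null libraries lay above wild type, and none of the differences was called (adjusted p of 0.292, 0.217 and 0.244 in the triple null, the Scribble null and the Yap1 Taz null by limma). In the downstream machinery Arpc2, an Arp2/3 subunit, lay between 441.3 and 534.3 TPM, and Myl12b, a myosin light chain, between 595.6 and 849.9 TPM.

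**Figure D3:**
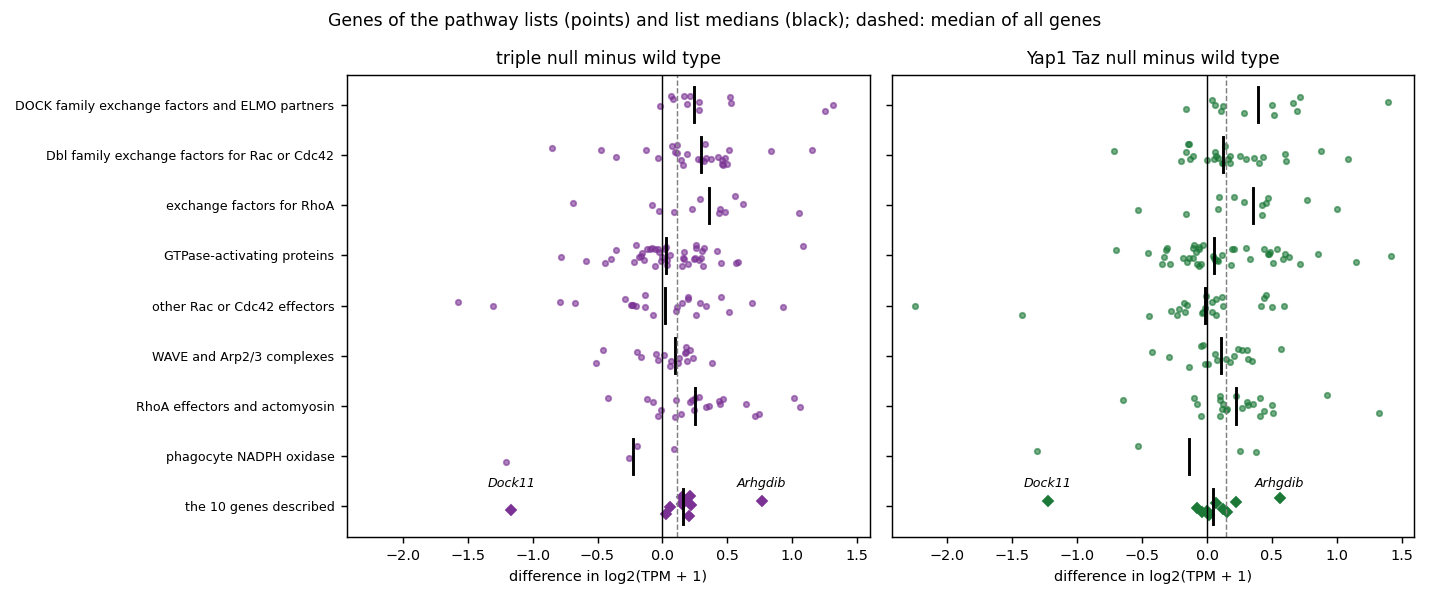
Difference in log2(TPM + 1) from wild type (x axis) of the genes of 8 pathway lists (points, rows) and of the 10 genes described (diamonds, bottom row), in the triple null and the Yap1 Taz null; black bars are medians and the dashed line is the median of all genes. Dock11 (-1.16 and -1.23) and Arhgdib (0.76 and 0.56) lie apart from the other 8 genes of their row, and 0 of the 177 list genes were called in these 2 comparisons.

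The genes with profiles most like those of Cdc42, Rac1 and Rac2 were found among 8715 protein-coding genes with a mean of at least 10 TPM, by the root mean square distance between log2(TPM + 1) profiles over the 8 libraries, each centred on its own mean. For Cdc42 they were St13 (0.048), Mtmr6 (0.056) and Sfxn3 (0.061), where the profile of Cdc42 itself has a standard deviation of 0.123. For Rac1 they were Tmed10 (0.034), Kat2a (0.046) and Tfg (0.055), beside a standard deviation of 0.113. For Rac2 they were Dag1 (0.046), St13 (0.061) and Nfya (0.063), beside a standard deviation of 0.142. St13 was thus near both Cdc42 and Rac2. All profiles share the same 8 libraries and vary little. A gene that did not move would lie at a distance equal to the standard deviation given, and the genes named lie nearer. They thus share part of the profile's shape, but they are the nearest of 8715 genes, and the closeness was not tested.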

How the data were processed

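RNA of sorted bone marrow stem cells was amplified (Ovation RNA-Seq v2) and tagmented into Nextera XT libraries, per the labels' protocols. Each library has a table of TPM deposited by the authors, per the file headers, which sums to 1000000. TopHat and mm10 are named in the submitters' processing notes; the sources used here give no quantifier, annotation or strand handling. TPM keeps no depth and forces a fixed total. The authors also deposited a series-wide table, a signal in a unit its header does not name, used as an alternative only.

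The test was run in limma 3.58.1 (R 4.3.3) on TPM plus 1 in log2: genes with at least 1 TPM in 2 of 8 libraries, 1 model of 4 group means with a mean-variance trend, 4 residual degrees of freedom, adjusted p under 0.05. The procedure was checked on simulated data. Copies were sought with BLAST 2.17.0. Alternatives varied the pseudocount, filter, scaling, trend, replicate block, table, copies and libraries. The 10 genes and all lists were chosen with earlier results of these data known. Genes named beside the 10 were the targeted genes, list genes that were called or among the 2 most abundant, family relatives, and the 3 nearest profiles of Cdc42, Rac1 and Rac2; Y-linked genes, markers and averaged contrasts were added after values were seen. Some results are not reported here.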

Additional observations from a re-analysis of the deposited data

Results flagged for a closer look

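Rac1 was flagged because its effects ran in opposite directions in different backgrounds. Every library of 1 contrast moved one way and every library of the other moved the opposite way. How many of all genes show this pattern was not counted, so the pattern does not set Rac1 apart from them. Scribble loss went with a log2 difference of 0.14 where Yap1 and Taz were also lost (the triple null minus the Yap1 Taz null) and of -0.20 where they were present (the Scribble null minus wild type). Loss of Yap1 and Taz went with 0.26 where Scribble was also lost (the triple null minus the Scribble null) and with -0.080 where it was present (the Yap1 Taz null minus wild type). None of these was called (adjusted p = 0.817, 0.385, 0.538 and 0.779 by limma). The difference between the effects was tested as the departure from additivity, which was 0.34 (SE 0.16, 95% interval -0.02 to 0.71, unadjusted p = 0.0634, adjusted p = 0.370 by limma). It did not pass the threshold in any of 18 alternative settings, where it ranged from 0.18 to 0.49 with adjusted p of 0.204 to 0.669.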

How the results depend on the processing

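With 2 libraries a genotype and no depth behind TPM, small differences were not detectable here. Over the 10 genes, 57 uncalled differences had 1073 alternative values, of which 0 passed the threshold and 56 moved by at least 1 SD. The calls on Dock11 and Arhgdib kept their direction in all alternatives run. Many of these alter only the filter, trend, block, copies or libraries outside the comparison. Those leave the difference itself unchanged, so the direction could not turn there. Where calls were lost to another table, trend or scaling, the cause was not tested; fits on fewer libraries have fewer degrees of freedom.

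The replicate numbers are not said to mark a shared animal or day, and replicate differences of 2 genotypes correlated at -0.053 to 0.026, so the pairing is not established. With the replicate block, 0 of the 10 genes were called in the triple null against wild type (main value 2), 0 in the F test (1) and 1 in the averaged Yap1 and Taz loss (2); Dock11 in the Yap1 Taz null stayed called. Over all genes the replicate block gave 110 calls in the Scribble null (209), 102 in the F test (161) and 14 between the triple null and the Yap1 Taz null (29).

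Among the 10 genes, the triple null calls went to 0 without a filter, without a trend, in the table of the whole series and in a fit on the libraries of the comparison alone, and to 1 with median-ratio scaling. The Yap1 Taz null call went to 0 without a trend, in the series table and with its own libraries alone. The F test called 2 with a filter at 5 TPM and 0 without a trend or in the series table. The averaged Yap1 and Taz loss called 1 without a filter, with median-ratio scaling or without a trend. Leaving out 1 library gave 0 to 1 calls in the Yap1 Taz null, 0 to 1 in the triple null, 0 to 1 in the F test and 0 to 2 in the averaged loss. The F test call on Dock11 was lost whichever library was left out; the 1 call, without Scribble null replicate 2, is Arhgdib.

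Over all genes, the Scribble null gave 127 calls without a filter, 100 without a trend, 101 in the series table, 63 alone and 46 to 227 without 1 library. The Yap1 Taz null (159) gave 105 in the series table, 91 alone and 52 to 136 without 1 library. The triple null (93) gave 36 to 88 without 1 library. The triple null against the Scribble null (34) gave 20 in the series table, 17 alone and 19 to 60 without 1 library, and against the Yap1 Taz null (29) it gave 17 without a filter, 15 in the series table, 7 alone and 11 to 22 without 1 library. The departure from additivity (102) gave 62 without a trend and 45 to 138 without 1 library, and the F test (161) gave 105 in the series table and 60 to 167 without 1 library.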
